A study of Mus musculus with 2 samples.

Results

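The SMAD family is the set of intracellular proteins that carry signals of TGF-beta, activin and BMP receptors to the genome. Its transcripts were read in platelets of mice labelled Smad4 f/f or Smad4 −/−, by taking every array probe set whose only gene symbol is Smad1, Smad2, Smad3, Smad4, Smad5, Smad6, Smad7 or Smad9. These 8 genes have 18 probe sets, of 45037 on the array that are not controls. RNA came from washed platelets of C57BL/6 mice. The Smad4 f/f mice had loxP sites around Smad4 and are described as the wildtype control. The Smad4 −/− mice were such mice crossed to a PF4-Cre line, in which the Pf4 promoter drives Cre in megakaryocytes. Whether the Smad4 f/f mice carried the Cre transgene, the ages and the sexes of the mice, and whether RNA was pooled are not given in the sources used here. There were 6 mice and 1 array per genotype, so there were no replicates. Every difference is one between a pair of arrays, without a test, and precision is limited by having so few arrays.

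In this pathway a ligand joins type I and type II receptor kinases, and the type I kinase phosphorylates receptor-regulated SMADs. Smad2 and Smad3 serve TGF-beta and activin receptors, and Smad1, Smad5 and Smad9 serve BMP receptors. Both kinds form complexes with Smad4, the common partner, which enter the nucleus and act on target genes. Smad6 and Smad7 are inhibitory SMADs that act back on receptors and on the other SMADs, and both are themselves target genes of the pathway. Platelets have no nucleus, so their SMAD transcripts were made in the megakaryocyte. In such a bulk sample fewer cells of a type and less RNA per cell cannot be told apart.

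A probe set is a group of short probes on the array that together report 1 signal for a transcript. A probe set counted as measured when its signal reached a floor of 145.2 on at least 1 array, set at the 60th percentile of whichever array was higher there. Of the 18 SMAD probe sets, 11 were measured, 10 of them on both arrays, and they covered 5 genes: Smad1, Smad2, Smad3, Smad4 and Smad5. The 7 others lay below the floor on both arrays, and they include every probe set of Smad6, Smad7 and Smad9. On floored values a single measured SMAD probe set, one of Smad5, was at least 2-fold apart between the arrays. Over all 21377 measured probe sets 6.75% were at least 2-fold apart, so 1 of 11 (9.09%) stands near the background. At 1.5-fold 4 of the 11 passed, beside 24.7% of all, and at 3-fold 0 did, beside 0.912%.

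**Figure D1:**
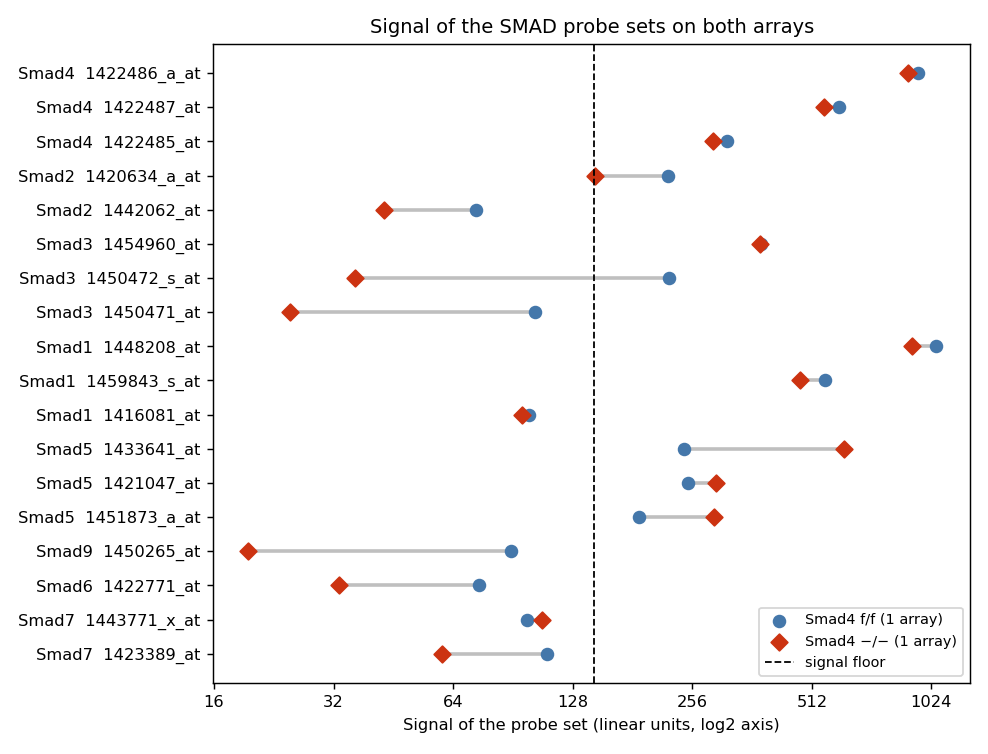
Signal of each of the 18 SMAD probe sets on the Smad4 f/f array (circles) and the Smad4 −/− array (diamonds), with the signal on a log2 axis and the floor of 145.2 as a dashed line. All 3 Smad5 probe sets have the diamond to the right of the circle, the 3 Smad4 probe sets have both marks close together, and 7 probe sets lie wholly left of the floor.

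Smad4, the deleted gene, gave nearly the same signal on both arrays in all 3 of its probe sets. Probe set 1422486_a_at read 949 on the Smad4 f/f array and 894 on the Smad4 −/− array, a log2 ratio of −0.09. Signals are given in this order from here on. Probe set 1422487_at read 600.1 and 548, a log2 ratio of −0.13. Probe set 1422485_at read 313 and 288, a log2 ratio of −0.12. The array of the Smad4 −/− mice was thus slightly lower in each, by at most 1.10-fold. With the arrays centred on their medians the ratio of 1422486_a_at was 0.01, so the direction of its small difference depends on the scaling. The ratios of 1422485_at and 1422487_at were then −0.02 and −0.04, and they stayed below 0 under each scaling and floor applied.

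The 3 Smad4 ratios span only 0.045 on the log2 scale, and 99.7% of the 1020 genes with 3 measured probe sets had a range at least as wide. All 3 are annotated to the same cDNA entry, so they are not independent views of the gene. Among 1896 probe sets within 0.5 log2 units of the signal of 1422486_a_at, the central 90% of log2 ratios ran from −0.79 to 0.82, and 83.6% had a ratio at least as far from 0. Which exons the probes cover was not analysed here. Transcript ends that survive a deletion can still be read by an array, and these signals therefore do not check the labels. The labels state that the absence of the protein was examined by Western blot.

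Smad2 and Smad3, the SMADs of TGF-beta and activin receptors, had no measured probe set that passed 2-fold on floored values, but for 1 of Smad3 that value is only a lower bound. For Smad2, probe set 1420634_a_at read 223 and 145.2, a log2 ratio of −0.62 or 1.53-fold lower in Smad4 −/−. The Smad4 −/− signal sat almost exactly on the floor. A difference of 1.5-fold or more was found in 24.7% of all measured probe sets, with 13.3% of all on the lower side, so its size is common on these arrays. The second Smad2 probe set, 1442062_at, read 73.1 and 42.9 and lay below the floor on both arrays.

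The 3 probe sets of Smad3 did not give one picture. Probe set 1454960_at read 382 and 379.5, a log2 ratio of −0.01 that lay between 0.02 and 0.08 under the 3 other scalings. Probe set 1450472_s_at read 224 and 36.2, so with the second value raised to the floor it was at least 1.54-fold lower. It passed 2-fold with the floor at the 50th percentile (−1.10 on the log2 scale) and with an offset of 32 in place of a floor (−1.91). Probe set 1450471_at, which is annotated to the same expressed sequence tag as 1450472_s_at, read 103 and 24.9, below the floor on both arrays. Thus 1454960_at gave nearly equal signals, 1450472_s_at fell below the floor in Smad4 −/−, and 1450471_at gives no direction.

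Without a floor the log2 ratio of 1450472_s_at was −2.63. Among 8165 probe sets of similar mean signal the central 90% of ratios ran from −2.54 to 2.38. Of these, 8.00% were as far from 0 or farther, and 4.40% were as low or lower. For 1450471_at the ratio without a floor was −2.04, inside a central range of −3.28 to 3.08. At these signals the arrays spread widely, and a large ratio by value was frequent in either direction. On floored values the range between the measured Smad3 probe sets was 0.61, a minimum because 1450472_s_at enters as a bound. That value was reached or passed by 32.6% of the 2654 genes with 2 measured probe sets. Without a floor the measured Smad3 ratios were −0.01 and −2.63, much farther apart.

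**Figure D2:**
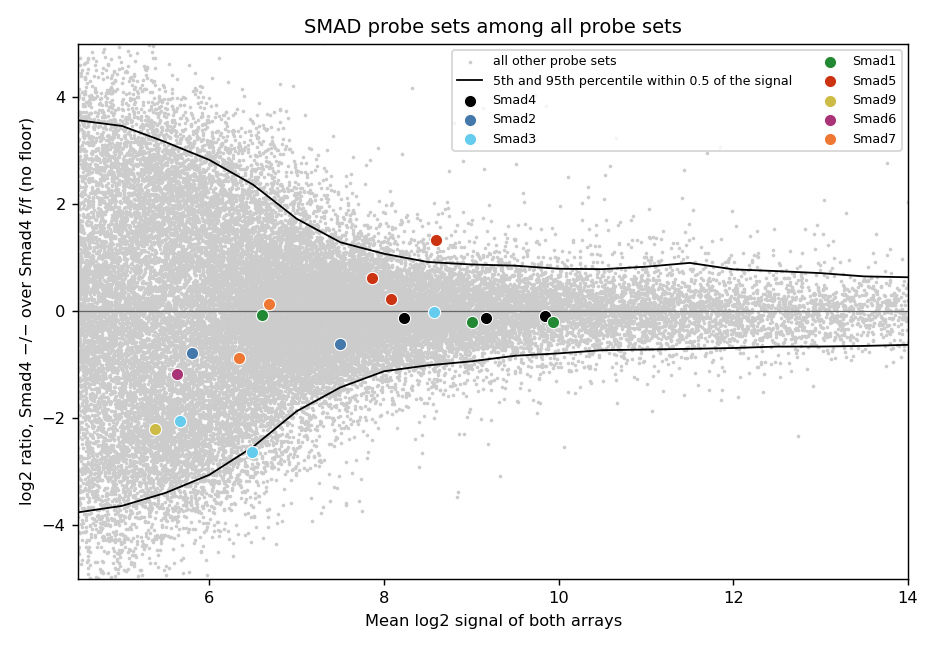
Log2 ratio of Smad4 −/− over Smad4 f/f, without a floor, against the mean log2 signal of both arrays for all probe sets (grey; the most extreme values lie outside the axes) and for the SMAD probe sets (coloured by gene). Black lines join the 5th and 95th percentiles of the ratio among probe sets within 0.5 log2 units of signal; 1 Smad5 probe set lies above the upper line, 1 of Smad3 just below the lower line, and the other SMAD probe sets lie between them.

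Among the BMP-regulated SMADs, Smad5 was higher in Smad4 −/− in all 3 probe sets while Smad1 was slightly lower. Smad5 probe set 1433641_at read 244 and 616, 2.53-fold higher in Smad4 −/−. Probe set 1451873_a_at read 188 and 290.2, 1.55-fold higher, and 1421047_at read 250 and 294, 1.18-fold higher. Every Smad5 probe set thus read higher on the Smad4 −/− array, but by amounts that differ among them, and a single one passed 2-fold. On the higher side 3.24% of all measured probe sets passed 2-fold.

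The mean log2 ratio of the 3 Smad5 probe sets was 0.73, or 1.66-fold, short of 2-fold. Their range was 1.10, which 22.9% of genes with 3 measured probe sets reached or passed, and the pooled SD between probe sets of one gene over 4252 genes was 0.48. All ratios had the same sign in 35.8% of the 1020 genes with 3 measured probe sets, so agreement in direction is itself not rare. The log2 ratio of 1.34 of 1433641_at lay outside the central 90% of −1.0 to 0.89 among 3612 probe sets of similar signal, of which 3.49% were as far from 0 or farther. The 2 others, at 0.63 and 0.24, lay inside the ranges of −1.20 to 1.10 and −1.09 to 1.06 among probe sets of their own signal.

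For Smad1, probe set 1448208_at read 1052 and 913, a log2 ratio of −0.20. Probe set 1459843_s_at read 551 and 479, also a log2 ratio of −0.20. Both measured Smad1 probe sets were thus lower by about the same factor, 1.15-fold, with a range of 0.0015 that 99.7% of genes with 2 measured probe sets reached or passed. The third, 1416081_at, read 99.5 and 95.4 and was not measured. Smad1 and Smad5 are close relatives in sequence and role, and on these arrays their values lay on opposite sides of 0 under each scaling and floor applied; whether they differ beyond the spread between animals was not tested.

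Smad9, the third BMP-regulated SMAD (also known as Smad8), has 1 probe set, 1450265_at, which read 89.3 and 19.4. Both values lay below the floor, so no fold is given. The inhibitory SMADs were not measured either. Smad6 probe set 1422771_at read 74.4 and 32.9. For Smad7, 1423389_at read 110.1 and 59.9 and 1443771_x_at read 97.9 and 107.3.

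Values below the floor have no order here, so no direction is drawn from the 7 SMAD probe sets that lay there. Over all 23660 probe sets below the floor on both arrays, log2 ratios ran from −3.0 at the 5th percentile to 2.86 at the 95th. With the floor at the 50th percentile, a signal of 104.1, 13 SMAD probe sets and 6 genes were measured, Smad7 being the sixth. With the floor at the 75th percentile, a signal of 260.1, 9 probe sets and 4 genes were measured, and Smad2 dropped out.

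**Figure D3:**
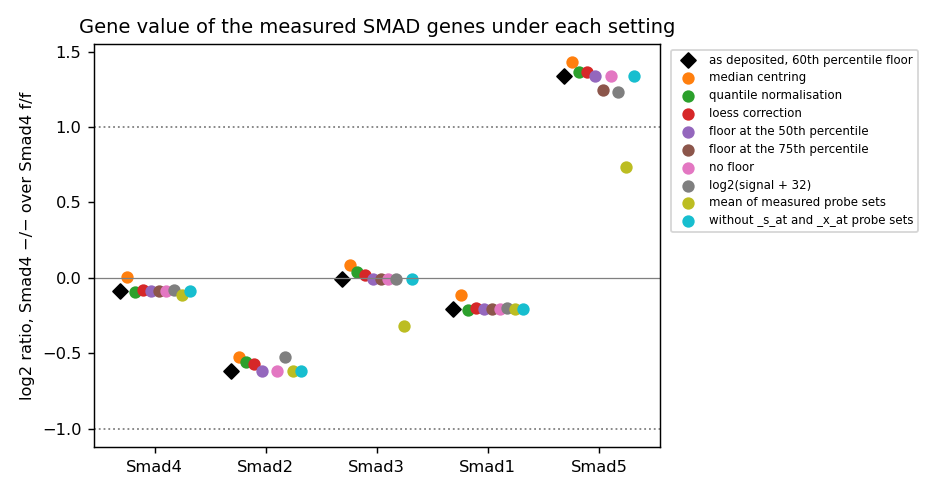
Log2 ratio of the gene value (Smad4 −/− over Smad4 f/f) of the 5 measured SMAD genes, as deposited with the 60th percentile floor (black diamonds) and under 9 other settings (circles), with dotted lines at 2-fold. Smad5 lies above 2-fold in all settings shown except the mean of its measured probe sets (0.73), Smad4, Smad1 and Smad2 stay within 2-fold, and Smad3 lies between −0.32 and 0.08.

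Promoter sequence from the RefSeq table (GRCm38.p6) was searched for 5 of the 8 genes, Smad1, Smad3, Smad5, Smad6 and Smad9. It came in 7 windows of 300 bases from 250 before to 50 after an annotated start. Windows on the chromosome of Smad4 were left out by a fixed rule, so Smad2, Smad4 and Smad7 have no window here. SMAD complexes bind short DNA motifs, and 3 were searched on both strands: CAGAC, the palindrome GTCTAGAC and GGCGCC, a GC-rich motif known for BMP-regulated SMADs. GTCTAGAC and CAGAC share the letters AGAC but no match of one is counted as the other. Smad6 and Smad5 are shown because Smad6 is a target gene of the pathway and Smad5 had the highest ratio toward Smad4 −/− among the measured SMADs; they were chosen after the values and the matches were seen. Capitals mark the matches, and each window is written 5′ to 3′ on the strand of its gene.
Smad6, chr9:64022010-64022309, minus strand: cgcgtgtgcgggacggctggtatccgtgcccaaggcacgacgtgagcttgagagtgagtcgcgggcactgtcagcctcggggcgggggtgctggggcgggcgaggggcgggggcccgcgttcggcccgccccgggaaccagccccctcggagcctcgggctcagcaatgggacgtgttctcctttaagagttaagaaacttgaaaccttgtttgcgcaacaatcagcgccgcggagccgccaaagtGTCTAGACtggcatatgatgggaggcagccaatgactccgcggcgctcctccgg
Smad5, chr13:56702760-56703059, plus strand: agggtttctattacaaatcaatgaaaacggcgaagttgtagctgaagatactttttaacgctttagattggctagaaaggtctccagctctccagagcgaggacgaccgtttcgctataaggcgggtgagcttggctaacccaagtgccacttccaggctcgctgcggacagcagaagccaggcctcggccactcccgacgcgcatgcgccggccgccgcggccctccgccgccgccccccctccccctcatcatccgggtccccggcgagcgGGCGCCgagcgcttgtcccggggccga

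The Smad6 window holds GTCTAGAC across the annotated start, with its first base 4 bases upstream. This motif occurs in 0.213% of 32851 promoter windows of the same length, and in 1 of the 7 SMAD windows. The share over all windows leaves out no chromosome, but the 7 SMAD windows do. Smad7, the other inhibitory SMAD, is not among them, so these counts do not describe the whole family. GGCGCC occurs in 11.9% of all windows and in 3 of the 7, those of Smad9 and of 2 of the 3 Smad5 starts, which overlap and share 1 match. CAGAC occurs in 49.6% of all windows and in 1 of the 7, at the third Smad5 start. A match describes letters only, and binding was not measured here. Smad6, with the rarest of these motifs at its start, was below the floor on both arrays, and so no ratio bears on it.

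The other genes of the pathway were set beside the SMADs by their gene values, taken from the probe set with the highest mean signal. By this rule 1 of the 5 measured SMAD genes, Smad5, was at least 2-fold apart, and 7.00% of all 11089 measured genes were, 3.42% higher and 3.58% lower. At 1.5-fold 2 of the 5 passed, Smad5 and Smad2, beside 25.1% of all, and at 3-fold 0 passed, beside 0.929%. Of 14 ligand genes 9 were measured, and 0 passed 2-fold. Their median log2 ratio was −0.50, against −0.02 over all measured genes, with 7 of 9 below 0, as were 51.7% of all. In 3 of the 9, Bmp4, Bmp6 and Inha, the Smad4 −/− array lay below the floor, so their ratios are bounds. These 3 were measured through the Smad4 f/f array alone and could only come out lower. The count below 0 includes them, and the median is the bound of Bmp4, so neither gives a direction for the ligands. Nodal, a ligand of early development, read 287 and 167, and Gdf11, an activin-like ligand, read 444 and 259, both at a log2 ratio of −0.78. Floored at the 75th percentile, Nodal came to −0.14 and Gdf11 to −0.77. Of the 15 receptors and co-receptors 11 were measured, 1 was at least 2-fold higher and 0 lower, with a median of 0.20. That 1 was Hjv, the BMP co-receptor hemojuvelin, which read 507 and 1016, a log2 ratio of 1.0, while another measured probe set of the gene gave 1.30. With quantile normalisation the value was 0.997 and with an offset of 32 in place of the floor 0.96, both short of 2-fold. In 4 of the 11 measured receptors and co-receptors, Tgfbr3, Acvr1b, Acvr2b and Bmpr1a, 1 array lay below the floor. Their ratios are thus bounds, and the median of 0.20 is the bound of Bmpr1a. Acvr1b, Acvr2b and Bmpr1a were measured through the Smad4 −/− array alone and could only come out higher, and Tgfbr3 only lower.

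Of 28 corepressors, ubiquitin ligases, anchors and coactivators 23 were measured, with 1 higher, 0 lower and a median of −0.002. The 1 was Skil, whose product SnoN represses SMAD complexes and which is itself a target gene, at a log2 ratio of 1.78. Of 22 target genes other than SMADs 13 were measured, with 3 higher, 1 lower and a median of 0.05. Beside Skil, these were Ltbp2, a latent TGF-beta binding protein family member (1380.1 against 3561, 2.58-fold higher), Cdkn1a, a cell cycle inhibitor (at least 2.68-fold higher), and the fibronectin gene Fn1 (2.08-fold lower). Skil, Ltbp2, Cdkn1a and Fn1 each rest on 1 measured probe set. For Id1, Cdkn1a and Tgfbi the Smad4 f/f array lay below the floor, so their ratios are bounds that could only come out higher. The 2 measured probe sets of Id2 disagreed, at log2 ratios of −0.31, which is the gene value, and 1.24, which is past 2-fold. Fn1 came to −0.96 with median centring, −0.95 with the offset and −0.67 when floored at the 75th percentile, where Cdkn1a came to 0.58, all short of 2-fold. Over the union of these lists, 5 of 53 measured genes (9.43%) passed 2-fold.

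**Figure D4:**
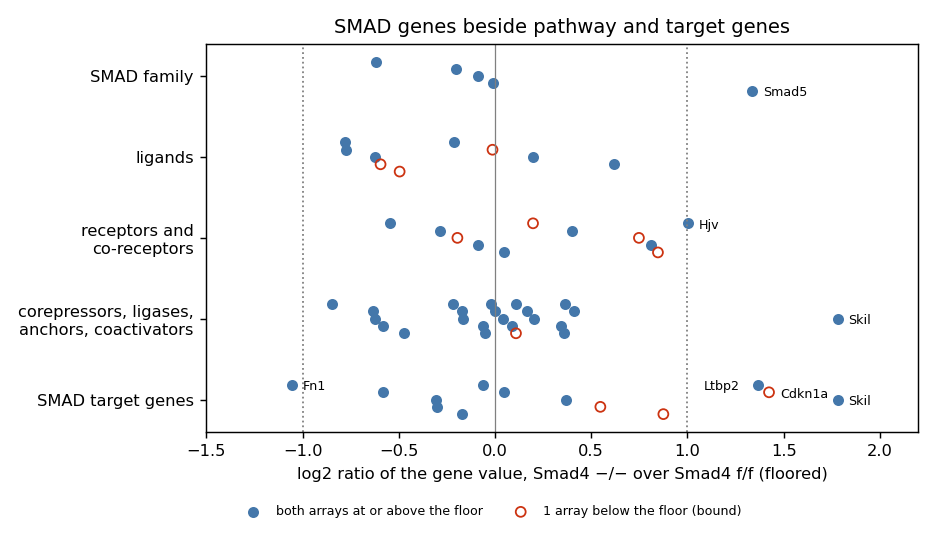
Log2 ratio of the gene value, floored, of each measured SMAD, ligand, receptor, regulator and target gene, with Skil, Ski and Pmepa1 in both of the last groups. Dotted lines mark 2-fold and open circles are bounds with 1 array below the floor. Smad5, Hjv, Skil, Ltbp2 and Cdkn1a lie right of the upper line and Fn1 left of the lower one.

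With 2 arrays the pattern of a gene is a single ratio. Of 5231 genes at or above the 75th percentile of signal on both arrays, 1052 (20.1%) had a log2 ratio within 0.1 of that of Smad4, the nearest being Sncb and Slc25a3. Within 0.1 of Smad5 lay 32 of 5232 such genes (0.612%), the nearest being Syt11 at 1.34 and Prrc2b at 1.33. The measure of likeness is the difference of log2 ratios over the pair of arrays.

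Platelet markers were abundant on both arrays. Of 15 listed, 13 have a probe set with a single symbol, and 13 were measured. By gene value 0 passed 2-fold, with a median log2 ratio of 0.11. Selp had a gene value of −0.47, but the lowest of its 3 measured probe sets, at −1.04, was past 2-fold lower. Among markers of other cells, 5 of 7 measured erythroid genes (13 listed) passed 2-fold on the higher side and the sum over all 7 was 10397 and 28549. For T and NK cells 1 of 6 measured genes (15 listed) was at least 2-fold higher, with sums of 6581 and 14949. Cd28 alone read 4685 and 12825, the 5 others summed to 1896 and 2123, Cd3d among them at 355.5 and 180.8, and Cd3e, Cd3g, Cd4 and Lck were not measured. The sums were 5447 and 6444 for 8 B cell genes with 2 higher, 5947 and 7549 for 5 neutrophil genes with 0 higher, 140697 and 132437 for 6 monocyte and macrophage genes with 1 higher, and 93055 and 114036 for 7 endothelial genes with 1 higher. Lyz2 made up 139723 and 131259 of the monocyte sum, and Vwf, which is a platelet marker too, 88895 and 106118 of the endothelial one. Pax5 of B cells, Ly6g, Mpo and Elane of neutrophils, Cd14 of monocytes and Tie1 of endothelium were not measured. The ratio of 3' to 5' control signal, which depends on RNA integrity, was 1.86 and 2.61 for Gapdh and 1.16 and 1.27 for beta-actin. These differences run beside the Smad5 and Smad3 values, and their part in them was not tested.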

How the data were processed

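Total RNA was amplified from its 3' end, labelled with biotin and read on Affymetrix mouse arrays, per the labels. The deposited table gives a log2 signal for every probe set on every array, and MAS5 is named per the submitters' processing notes, without a version. With 2% of the values trimmed from either end, both arrays have a mean linear signal of 500.01. The values were used as scaled by the authors, in Python 3.11.15 with pandas 2.3.3. Gene symbols came from the platform annotation: 34945 probe sets have 1 symbol, 932 several and 9160 none, and 34741 matched RefSeq genes.

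Signals were raised to a floor, the 60th percentile of whichever array was higher there. Unless said otherwise a log2 ratio is the floored value of Smad4 −/− minus that of Smad4 f/f; with 1 side below the floor a ratio is a bound. A gene took the probe set with the highest mean signal. No test was possible with 1 array per genotype, and 2-fold is a rule of size. A ratio counted as moved between settings when it changed by the pooled SD within genes, 0.48, or more. All SMAD probe sets were named, and in each list the genes past 2-fold or, where there were none, the 2 with the largest ratio. The members and lists were chosen with earlier results of these data known. The calculation was tested on simulated data.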

Additional observations from a re-analysis of the deposited data

How the results depend on the processing

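The alternatives were median centring, quantile normalisation, a loess correction, floors at the 50th and 75th percentiles, no floor, log2(signal + 32), thresholds of 1.5-fold and 3-fold, the mean of measured probe sets, and dropping the _s_at and _x_at probe sets. Of the SMAD probe sets, 1 passed 2-fold; the count was 2 with the floor at the 50th percentile, with no floor and with log2(signal + 32), where the Smad3 probe set 1450472_s_at joined at −1.10, −2.63 and −1.91. It was 4 at 1.5-fold and 0 at 3-fold. Of the SMAD genes, 1 passed; 2 did at 1.5-fold, and 0 at 3-fold or with the mean of measured probe sets, where Smad5 came to 0.73. In the other settings Smad5 ranged up to 1.43.

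Smad1 and Smad2 kept their direction in each setting that gave a value. Smad2 was not measured with the floor at the 75th percentile. Smad4 ranged from −0.11 to 0.01 and Smad3 from −0.32 to 0.08. The median over all measured probe sets moved by 0.08 with median centring and by less with the other scalings. In 4 of the 4 SMAD genes with at least 2 measured probe sets these all had one sign, as in 47.6% of all 4252 such genes; this held in 2 with median centring and in 2 without the _s_at and _x_at probe sets, where fewer genes have a pair; this last comparison of settings was added after seeing the data. The count of pathway and target genes past 2-fold, 5 as reported, was 8 and 3 with floors at the 50th and 75th percentiles, 11 with no floor, 9 with log2(signal + 32), 17 at 1.5-fold and 1 at 3-fold. Low signal limits Smad6, Smad7 and Smad9, for which no ratio can be given with the 60th percentile floor.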
